A study of Mus musculus with 5 samples.

Results

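The genes described here are 6 channel and junction genes of the mouse lens, namely the connexin genes Gja1 and Gja3, the aquaporin genes Mip, Aqp1 and Aqp5, and the fibre membrane gene Lim2. They were taken by gene symbol from the 22183 genes of the deposited table, and all 6 passed the filter on low counts, which left 11724 genes for testing. Poly(A) RNA was measured in 5 libraries of whole lenses from mice at postnatal day 14. The cKO group (2 libraries) came from Yap1 f/f;Cre or Yap1 f/+;Cre mice, in which a floxed gene for the Hippo-pathway co-activator YAP1 is deleted by Cre, and the lenses were picked for a severe phenotype of small eyes and a closed pupillary membrane. The Ctrl group (3 libraries) came from normal-looking Yap1 f/f and Yap1 f/+ littermates, so both groups carried floxed Yap1 alleles. The sources used here do not say in which cells Cre was active. Each library was a pool of 4 to 6 lenses, and these pools are the replicates. A p-value thus weighs the group difference against the spread between pools, which was estimated in part from all tested genes. A cKO pool could hold lenses with 1 or 2 floxed copies of Yap1.

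The lens has no blood vessels. Its front is covered by an epithelium, and its bulk is made of elongated fibre cells that lose their organelles. Gap junctions, built from connexins, couple these cells and carry ions and small metabolites to the lens interior, while aquaporins let water follow the solutes. Gja1 is the main connexin of the epithelium, and Gja3 is a main subunit of the fibre gap junctions. Mip is the abundant water channel of fibre membranes, where it also joins neighbouring membranes; Aqp1 is the water channel of the epithelium, and Aqp5 is found in epithelium and fibres. Lim2 encodes a fibre membrane protein of the PMP22, EMP and claudin family. In humans, mutations in GJA3, MIP or LIM2 cause cataract.

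The libraries held 22047553 to 25762805 counts. Crystallins, the defining proteins of the lens, took 66.4 to 69.1% of counts in cKO and 71.3 to 73.9% in Ctrl. Yap1 itself had 92 and 61 counts in cKO 1 and 2, against 155, 133 and 143 in Ctrl 1, 2 and 3, a log2 fold change of −1.08 (SE 0.33) that missed the threshold (edgeR quasi-likelihood test, Benjamini-Hochberg adjusted p = 0.0759). The 2 cKO libraries were less alike (Pearson r of log2 CPM across genes 0.871) than the Ctrl pairs (0.962 to 0.978), where CPM is a gene's count over the TMM-scaled library size. The Y-linked genes Ddx3y and Eif2s3y had 0 counts in both cKO libraries, against 558 to 854 counts in each Ctrl library, so sex and genotype cannot be told apart in these pools. Genes with an adjusted p under 0.05 are referred to as called, and these made up 13.5% of all genes tested, 5.76% higher and 7.73% lower in cKO.

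Of the 6 genes, 1 fell (Gja1), 1 rose (Aqp5) and 4 were not called, against the 13.5% of all tested genes that were called. Their median log2 fold change was −0.10, beside −0.06 over all tested genes. Aqp1 was lower in both cKO libraries than in any Ctrl library without passing the threshold, and the abundant fibre genes Gja3, Mip and Lim2 overlapped between the groups. Values that do not overlap between the groups were common in this comparison: 51.5% of all tested genes had none, 22.8% with cKO above and 28.7% with cKO below. In the 6 genes the groups were apart for 3, namely 1 with cKO above and 2 with cKO below.

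**Figure D1:**
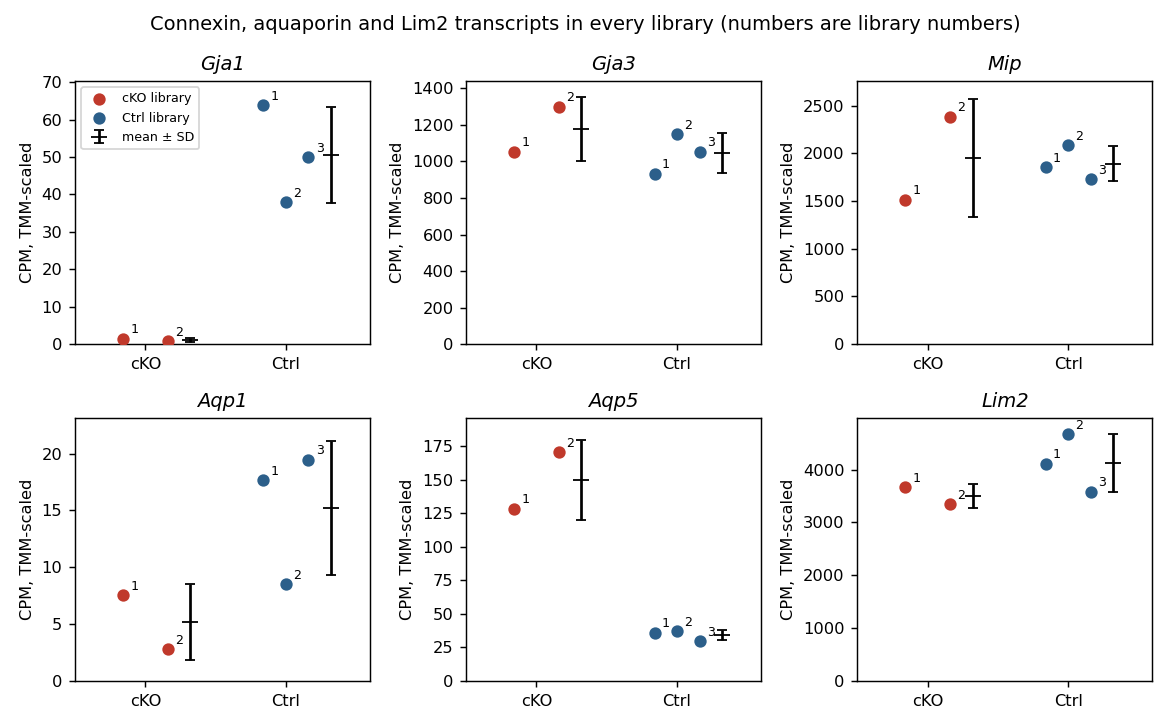
TMM-scaled CPM (y axes, from 0) of the 6 genes in the cKO and Ctrl libraries; each point is 1 library with its number, and the black marks give the mean ± SD of the group (n = 2 cKO, n = 3 Ctrl). Gja1 lies near 1 CPM in both cKO libraries, Aqp5 lies above 128 CPM in both and below 38 CPM in every Ctrl library, and the cKO points of Mip lie on either side of the Ctrl points.

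Gja1 (ENSMUSG00000050953) showed the largest change of the 6. It had 36 and 20 counts in cKO 1 and 2, against 1375, 778 and 1301 counts in Ctrl 1, 2 and 3. In CPM these were 1.47 and 0.745 in cKO 1 and 2, against 63.8, 37.98 and 49.9 in Ctrl 1, 2 and 3. Both cKO libraries were far below the lowest Ctrl library, and the gene was still detected in each. Gja1 fell by 5.52 on the log2 scale (SE 0.41, 95% interval −6.50 to −4.53; edgeR adjusted p = 0.00352), 45.8-fold lower. The group means were 1.11 ± 0.513 CPM for cKO (SD, n = 2) and 50.6 ± 12.9 CPM for Ctrl (SD, n = 3).

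The deposited FPKM values, which divide counts by gene length and library size, gave a smaller fall for Gja1. They were 1.38 and 0.287 FPKM in cKO 1 and 2, against 18.5, 11.5 and 16.4 FPKM in Ctrl 1, 2 and 3, which is 18.6-fold lower by group means. The gene length implied by the 2 columns (counts over FPKM and library total) was 3.07 kb in cKO 2 and in each Ctrl library but 1.07 kb in cKO 1, so that the 36 reads of cKO 1 had been scaled to a shorter transcript. At the length of the Ctrl libraries, cKO 1 would have had 0.482 FPKM. Most of the difference in scale between the units rests on cKO 1. The FPKM values also lack the TMM scaling used for CPM.

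Sequence before the Gja1 start is shown because Gja1 fell furthest, beside that of Mip, an abundant fibre channel gene that was not called. Both are the 250 bases before the RefSeq start (GRCm38.p6, an older build than the GRCm39 of the submitters' processing notes), read 5′ to 3′ on the plus strand. The Gja1 window is chr10:56377050-56377299 and the Mip window is chr10:128225560-128225809. Capitals mark a match to TGANTCA, the motif of the AP-1 factors, which are known to act beside TEAD factors, the DNA-binding partners of YAP1.
Gja1: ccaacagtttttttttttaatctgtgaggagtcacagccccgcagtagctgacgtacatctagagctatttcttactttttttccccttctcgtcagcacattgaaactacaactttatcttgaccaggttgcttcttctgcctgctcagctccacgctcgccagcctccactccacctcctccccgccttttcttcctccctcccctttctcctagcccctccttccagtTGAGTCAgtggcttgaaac
Mip: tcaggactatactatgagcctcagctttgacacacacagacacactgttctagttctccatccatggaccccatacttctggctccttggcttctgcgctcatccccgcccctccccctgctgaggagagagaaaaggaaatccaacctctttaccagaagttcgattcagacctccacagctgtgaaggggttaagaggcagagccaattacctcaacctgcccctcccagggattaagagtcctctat
All 6 genes had an entry in the RefSeq promoter table, 7 windows in all since Gja3 has 2 starts. TGANTCA, searched on both strands, was in 1 of the 7 windows, that of Gja1, where it begins 19 bases before the start, and in 6.75% of all 32851 windows. The TEAD motif GGAATG, also searched on both strands, was in 0 of the 7 windows and in 12.6% of all windows. With no match to GGAATG, no match overlapped another. The motifs were chosen with results of these data known, and a match describes the letters only.

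Lens epithelial markers moved unevenly beside Gja1. Of 9 epithelial marker genes, all tested, 4 fell (Pax6, Cdh1, Pdpn and Npnt) and 0 rose. Over all tested genes, 7.73% were called lower and 5.76% higher. Foxe3 had 94 and 8 counts in cKO, against 492, 300 and 675 counts in Ctrl, and was not called (edgeR adjusted p = 0.0554). For Cdh1, the E-cadherin gene, 1 and 0 reads were counted in cKO 1 and 2, against 557, 440 and 986 reads in Ctrl 1, 2 and 3. The summed level of the list was 1291 and 2633 CPM in cKO 1 and 2, against 2005, 2309 and 2224 CPM in Ctrl 1, 2 and 3, since its most abundant genes, Dkk3 and Sfrp1, were not called. None of the 9 was at 0 in both cKO libraries. Markers of fibroblasts, which also make Gja1, summed to 20.0 and 6.15 CPM in cKO, against 23.5, 21.7 and 21.5 CPM in Ctrl. Of 3 tested genes, 1 was called higher (Col1a1) and 1 lower (Pdgfra). Most of each Ctrl sum was Pdgfra, at 20.5, 20.3 and 19.7 CPM, against 1.96 and 0 CPM in cKO 1 and 2. Col1a1 went the other way, at 2.70 and 4.73 CPM in cKO, against 0.371, 0.0976 and 0.0384 CPM in Ctrl. Dcn was at 11.2 CPM in cKO 1 but 0 in cKO 2. The sum thus follows Pdgfra in Ctrl and cannot be read as a level of fibroblasts. The part of fibroblasts in the fall of Gja1 was not tested. In whole lenses, fewer cells of a type and less RNA per cell cannot be told apart.

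Gja3 (ENSMUSG00000048582), a fibre connexin, had 25813 and 34903 counts in cKO 1 and 2, against 20136, 23566 and 27434 counts in Ctrl 1, 2 and 3. Scaled, it was 1054 and 1300 CPM in cKO, against 934, 1150 and 1053 CPM in Ctrl. The library cKO 1 lay inside the Ctrl range and cKO 2 above it. The log2 fold change was 0.17 (SE 0.17, 95% interval −0.24 to 0.58; edgeR adjusted p = 0.536), an interval that leaves room for a modest change either way. By FPKM, Gja1 made up 0.341 and 0.0492% of the Gja1 and Gja3 sum in cKO 1 and 2, against 5.52, 2.76 and 3.97% in Ctrl 1, 2 and 3. This share lies within a library and so does not depend on scaling between libraries, though the cKO 1 value carries the shorter length given above.

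Among 18 other connexin genes, 8 were tested, of which 1 rose and 1 fell, and 5 had no count in any library. Over all tested genes, 13.5% were called either way. Gje1, which encodes the epsilon connexin, rose by 1.68 in log2 units (SE 0.21, 95% interval 1.16 to 2.19; edgeR adjusted p = 0.0116). It had 750 and 533 CPM in cKO 1 and 2, against 165, 226 and 209 CPM in Ctrl 1, 2 and 3. Both cKO libraries lay above the highest Ctrl library. Gjc1, a connexin of vascular and cardiac cells, fell by 3.52 (SE 0.72; edgeR adjusted p = 0.0304) at a low level, with 4 and 3 counts in cKO against 31, 46 and 31 counts in Ctrl. The only tested pannexin, Panx1, was not called (1.11, SE 0.66; edgeR adjusted p = 0.304).

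The make-up of the connexin transcripts is given by library. Per length, the 20 connexin genes summed to 950 and 1077 FPKM in cKO 1 and 2, against 491, 616 and 650 FPKM in Ctrl 1, 2 and 3. Gje1 took 53.7 and 39.6% of that sum in cKO, against 20.3, 23.1 and 22.01% in Ctrl. Gja3 took 42.4 and 54.1% in cKO, against 64.5, 65.6 and 61.2% in Ctrl. In cKO 1, Gje1 was above Gja3, whereas in cKO 2 and in each Ctrl library Gja3 was the most abundant connexin. These shares are a description, and no test was run on them.

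**Figure D2:**
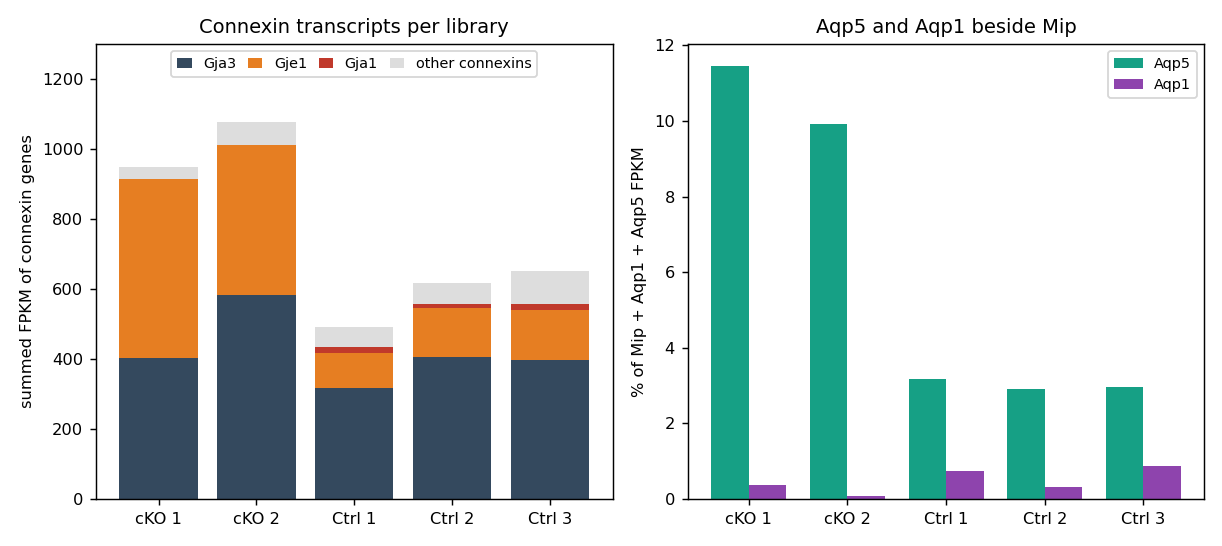
Left, FPKM of connexin genes stacked in each library (y axis, summed FPKM; the light part holds all other connexin genes); right, Aqp5 and Aqp1 as a percentage of the Mip, Aqp1 and Aqp5 sum in each library. The cKO columns on the left reach 950 and 1077 FPKM, with Gje1 as the part that differs most, and on the right Aqp5 stands at 11.5 and 9.93% in cKO 1 and 2 and near 3% in Ctrl.

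Mip (ENSMUSG00000025389) was the most abundant aquaporin gene in each of the 5 libraries. It had 37083 and 64027 counts in cKO 1 and 2, against 40037, 42753 and 45062 counts in Ctrl 1, 2 and 3. In CPM, cKO 1 (1515) lay below every Ctrl library and cKO 2 (2385) above every one, beside 1857, 2087 and 1730 CPM in Ctrl. The cKO libraries thus differed 1.57-fold from each other, and the Ctrl libraries 1.21-fold at most. The log2 fold change of 0.04 (SE 0.22, 95% interval −0.50 to 0.59; edgeR adjusted p = 0.918) averages these opposite deviations, and leaving out cKO 2 gave −0.32, whereas leaving out cKO 1 gave 0.32 (edgeR adjusted p = 0.129 for each). The FPKM values, 711 and 1317 in cKO against 772, 904 and 816 in Ctrl, showed the same split.

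Aqp5 (ENSMUSG00000044217), a water channel best known from glands and cornea, was called higher. It had 3147 and 4584 counts in cKO 1 and 2, against 772, 759 and 772 counts in Ctrl 1, 2 and 3. Scaled, this was 129 and 171 CPM in cKO, against 35.8, 37.1 and 29.6 CPM in Ctrl, with no overlap. Aqp5 rose by 2.13 on the log2 scale (SE 0.18, 95% interval 1.69 to 2.57; edgeR adjusted p = 0.00441), 4.38-fold by the fit, with means of 149.6 ± 29.8 CPM for cKO (SD, n = 2) and 34.2 ± 3.97 CPM for Ctrl (SD, n = 3). The call was lost without Ctrl 2 at nearly the same size (2.19, edgeR adjusted p = 0.0575). Of the FPKM sum of Mip, Aqp1 and Aqp5, the Aqp5 share was 11.5 and 9.93% in cKO, against 3.17, 2.90 and 2.96% in Ctrl. The gene length implied for Aqp5 was 1.40 and 1.39 kb in cKO 1 and 2, against 1.25, 1.27 and 1.19 kb in Ctrl. These shares thus carry a longer length in cKO.

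Most markers of the cornea were at 0. Krt12, Krt5, Krt14 and Kera had no count in any library. The 6 corneal markers summed to 1.14 and 0 CPM in cKO 1 and 2, against 8.81, 5.66 and 2.69 CPM in Ctrl. The Ctrl sums came from Aldh3a1 alone, the 1 tested gene of the list, which was called lower. The cKO 1 sum came from Lum alone. Macrophage markers did move with the groups. Their 7 genes summed to 74.9 and 20.5 CPM in cKO 1 and 2, against 2.37, 1.17 and 1.19 CPM in Ctrl. Of 4 tested, 3 were called higher, beside 5.76% of all tested genes. The library with more macrophage RNA, cKO 1, had the lower Aqp5 of the cKO pair, and the part of these cells was not tested.

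Aqp1 (ENSMUSG00000004655), a water channel of epithelia, capillaries and red cells, was scarce in these lenses. It had 185 and 75 counts in cKO 1 and 2, against 381, 174 and 507 counts in Ctrl 1, 2 and 3. Scaled, it was 7.56 and 2.79 CPM in cKO, against 17.7, 8.49 and 19.5 CPM in Ctrl, so that cKO 1 was only a little below Ctrl 2. The log2 fold change of −1.56 (SE 0.54, 95% interval −2.86 to −0.26) had an unadjusted p of 0.0258 and was not called (edgeR adjusted p = 0.103). Leaving out cKO 1 gave −2.46, past the threshold (edgeR adjusted p = 0.00624). Leaving out cKO 2 gave −1.01, short of it (edgeR adjusted p = 0.0862). The DESeq2 test called it lower (−1.54, adjusted p = 0.0221).

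Spread among the Ctrl libraries was widest for Aqp1, at 2.29-fold from lowest to highest, beside 1.21- to 1.68-fold for the other 5 genes. Red-cell markers varied widely too. They summed to 65.6 and 2.20 CPM in cKO 1 and 2, against 50.01, 5.42 and 20.2 CPM in Ctrl 1, 2 and 3, with 0 of 4 tested genes called, and Slc4a1 had no count in any library. In each group the library with the lowest red-cell sum (cKO 2 and Ctrl 2) also had the lowest Aqp1. At the other end of the Ctrl group, Ctrl 1 had the highest red-cell sum but Ctrl 3 the highest Aqp1. The macrophage, retinal, fibroblast and endothelial sums were also lower in cKO 2 than in cKO 1. Vascular endothelial markers summed to 9.27 and 7.75 CPM in cKO, against 7.89, 4.78 and 6.76 CPM in Ctrl, with 0 of 6 genes called. Tek, the largest part in Ctrl, was at 2.33 and 2.23 CPM in cKO, against 4.82, 3.17 and 4.57 CPM in Ctrl. Pecam1, Cdh5 and Tie1 were above every Ctrl library in both cKO libraries, as were 22.8% of all tested genes. Kdr and Emcn overlapped between the groups. The part of red cells or capillaries in the Aqp1 values was not tested.

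Of 9 other aquaporin genes, 4 were tested, of which 1 rose and 1 fell, and 3 had no count in any library. The share called either way over all tested genes was 13.5%. Aqp8 rose by 4.01 (SE 0.66; edgeR adjusted p = 0.0198) at a low level, with 165 and 62 counts in cKO 1 and 2, against 7, 3 and 9 counts in Ctrl 1, 2 and 3. Aqp4, the water channel of astrocytes and Müller glia, fell by 4.68 (SE 1.04; edgeR adjusted p = 0.0368), with 13 and 0 counts in cKO against 134, 108 and 231 counts in Ctrl. Retinal markers summed to 7.64 and 1.86 CPM in cKO, against 44.6, 11.4 and 1.84 CPM in Ctrl, with 0 of 4 tested genes called, and Ctrl 3, with the lowest retinal sum of the Ctrl group, had the highest Aqp4 (8.87 CPM). The part of retinal cells in the Aqp4 values was not tested. Aqp3 had 76 counts in cKO 1 but 0 in cKO 2, against 13, 4 and 1 counts in Ctrl, and was not called.

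Lim2 (ENSMUSG00000118560) was the most abundant of the 6 genes per length. It had 89782 and 89905 counts in cKO 1 and 2, against 88643, 95798 and 93377 counts in Ctrl 1, 2 and 3. Scaled, these were 3667 and 3349 CPM in cKO, against 4112, 4676 and 3585 CPM in Ctrl, so cKO 1 lay inside the Ctrl range. The log2 fold change was −0.23 (SE 0.17, 95% interval −0.65 to 0.18; edgeR adjusted p = 0.393). Counts of Lim2 were fractional in all 5 libraries, as estimated counts are when reads are divided between genes. The older annotation in GENCODE gives the name Lim2 to ENSMUSG00000093639, which the deposited table calls Gm52993. Gm52993 had 1005 and 1052 counts in cKO, against 1155, 1396 and 1384 counts in Ctrl, that is 1.12 and 1.17% of the Lim2 count in cKO and 1.30, 1.46 and 1.48% in Ctrl.

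Other fibre markers moved in part beside the 3 abundant fibre genes. Of 10 fibre markers tested, 4 fell (Bfsp1, Lgsn, Caprin2 and Tdrd7) and 0 rose, beside 7.73% lower and 5.76% higher of all tested genes. The list summed to 13690 and 9782 CPM in cKO, against 23083, 23976 and 21069 CPM in Ctrl. Bfsp2, the largest part of the sum in each library, was not called (−0.63, edgeR adjusted p = 0.141). Grifin (0.17) and Hsf4 (0.32) had log2 fold changes above 0, were not called, and the other fibre markers lay below 0. Of 16 crystallin genes, all tested, 3 were called lower and 0 higher. Gja3, Mip and Lim2 were thus not called in lenses where fibre genes moved unevenly. The summed fibre markers were lower in both cKO libraries, and the part of the fibre share in the values of the 3 genes was not tested.

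All 4 relatives of Lim2 in the PMP22 and EMP group were tested, and 1 rose, beside 5.76% of all tested genes called higher. Emp2, an epithelial membrane protein gene, rose by 1.58 (SE 0.28; edgeR adjusted p = 0.0223), with 29.8 and 24.1 CPM in cKO 1 and 2, against 10.3, 10.7 and 6.10 CPM in Ctrl 1, 2 and 3. Pmp22, the most abundant of the group, was not called (0.24, SE 0.15; edgeR adjusted p = 0.327). The calls of Gje1, Gjc1, Aqp8, Aqp4 and Emp2 did not hold when any one Ctrl library was left out.

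**Figure D3:**
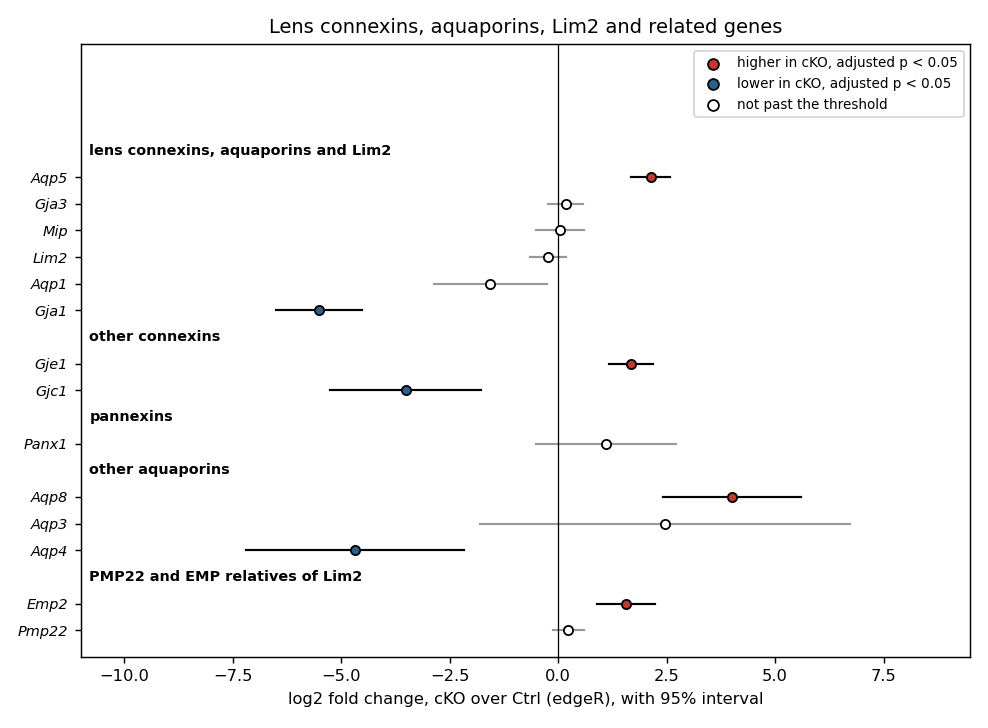
Log2 fold change of cKO over Ctrl (x axis) with its 95% interval for the 6 genes and the related genes named in the text, by list; filled points passed an adjusted p of 0.05 and open points did not. Gja1 at −5.52 and Aqp5 at 2.13 stand apart from 0, and Gja3, Mip and Lim2 have intervals that include 0.

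Per length, the 6 genes kept the same order in both groups from Lim2 down to Aqp5. Lim2 averaged 4331 ± 219 FPKM in cKO and 4387 ± 458 FPKM in Ctrl (SD, n = 2 and 3, as for the other genes) and ranked 16 to 18 among all genes in the 5 libraries. Mip followed at 1014 ± 429 FPKM in cKO and 831 ± 67.5 FPKM in Ctrl, and then Gja3 at 493 ± 128 FPKM in cKO and 373 ± 48.9 FPKM in Ctrl. Next was Aqp5, at 119 ± 37.4 FPKM in cKO and 25.9 ± 1.03 FPKM in Ctrl. The order turned only at the bottom. In Ctrl, Gja1 (15.5 ± 3.61 FPKM) lay above Aqp1 (5.50 ± 2.28 FPKM) with no overlap of libraries, whereas in cKO Gja1 averaged 0.832 ± 0.771 FPKM and Aqp1 averaged 2.08 ± 1.16 FPKM, and the libraries of that pair overlapped. All other neighbours in the order were apart in both groups.

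Patterns across the 5 libraries were compared by the root mean square difference of log2 CPM profiles, each centred on its mean in Ctrl, against 4798 genes with a mean of at least 10 CPM in either group. For Gja1 the nearest genes were Usp45, Dhx57 and F2r, at 0.48, 0.56 and 0.63 on the log2 scale, and F2r, a thrombin receptor gene, was at 1.67 and 1.08 CPM in cKO 1 and 2, against 36.7, 31.8 and 29.3 CPM in Ctrl 1, 2 and 3. For Aqp5 they were Gstp1, Marcks and Myo5a, at 0.06, 0.07 and 0.11. Gstp1, a glutathione transferase gene whose counts were fractional in all 5 libraries, was at 1333 and 1708 CPM in cKO, against 375, 361 and 328 CPM in Ctrl. For Mip they were Itga6, Nup93 and Sdc3 (0.04, 0.04 and 0.07), with Itga6, a laminin-receptor integrin gene that is also on the epithelial marker list, at 64.8 and 108 CPM in cKO, against 82.1, 87.6 and 78.3 CPM in Ctrl, the same split of the cKO pair as in Mip.

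Gja3 was nearest to Reep1, Pcdh7 and Cers2 (0.05 each), and Lim2 to Prkaa2, Chchd6 and Srrt (0.05, 0.05 and 0.07). Aqp1 was less closely matched, with Ror1, Hspb1 and Sinhcaf at 0.25, 0.38 and 0.38. Among the 6 genes, Gja3 and Mip were the most alike pair (0.17), and Gja1 and Aqp5 the least alike (4.81). These distances describe 5 libraries, are small wherever a gene hardly differs between libraries, and say nothing of shared function.

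**Figure D4:**
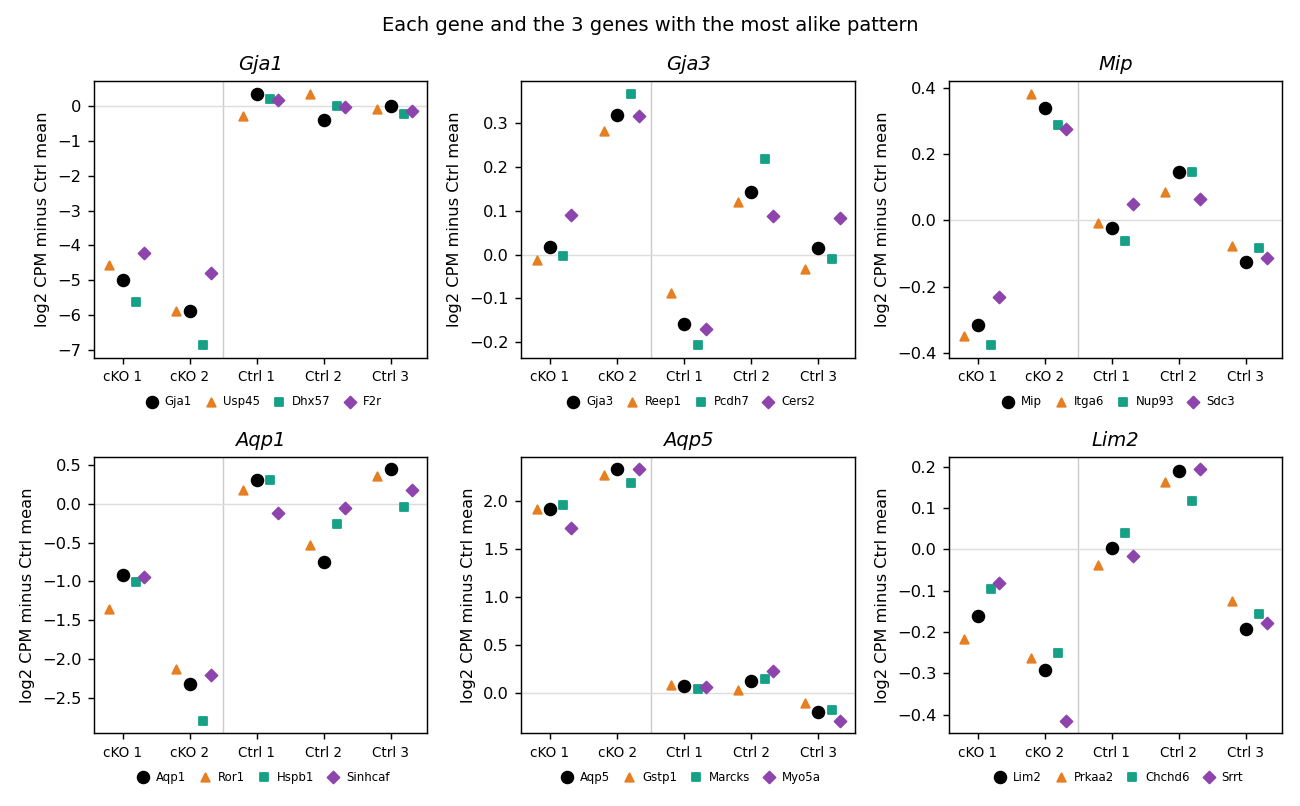
Log2 CPM minus the Ctrl mean (y axes) in each library for each of the 6 genes (black circles) and the 3 genes nearest to it (coloured symbols, named under each panel). The scales differ between panels, and the symbols of the Gja3, Mip, Aqp5 and Lim2 panels lie closer together than those of Gja1 and Aqp1.

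The terms in the deposited table group the genes differently from their changes. Of the 32 genes in the table with the term gap junction, 3 were among the 6, namely Gja1, Gja3 and Mip, and of 11 genes with water channel activity, 3 were Mip, Aqp1 and Aqp5. Mip and Lim2 also carry the term structural constituent of eye lens (23 genes in the table), and neither was called.

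**Figure D5:**
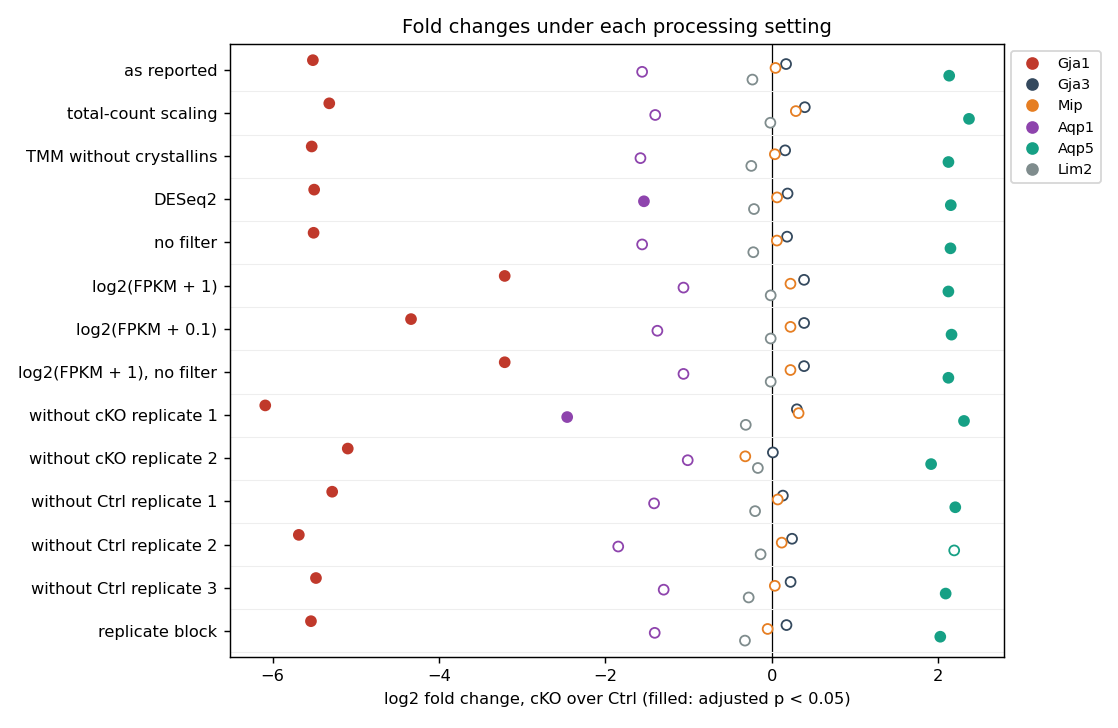
Log2 fold change of cKO over Ctrl (x axis) for each of the 6 genes under the reported fit (top) and 13 alternatives (rows); filled symbols passed an adjusted p of 0.05. Gja1 is filled in every row, Aqp5 in every row but the one without Ctrl 2, and Mip is found on both sides of 0.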

How the data were processed

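Per the submitters' processing notes, RSEM, Trimmomatic 0.18.0 and the build GRCm39 were used in unstated roles; an aligner and strandedness were not given in the sources used here. One column of expected counts and one of FPKM per library make up the authors' deposited table. As deposited, expected counts carry no scaling, and FPKM values are relative to gene length and library size, per the file headers. RNA had an integrity number above 8.0 and reads were paired at 150 bp, per the labels' protocols.

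Expected counts were rounded. The filterByExpr filter kept genes by a minimum count of 10 and a minimum total of 15. TMM scaling and the quasi-likelihood F test of edgeR 4.0.16 in R 4.3.3 followed, with group as the only term and Benjamini-Hochberg adjustment over all 11724 genes. Standard errors come from the F statistic and intervals from its degrees of freedom. Alternatives used limma 3.58.1 on log2(FPKM + 1) or log2(FPKM + 0.1), with FPKM of at least 0.1 in 2 libraries, and DESeq2 1.42.0. The fits were tested on simulated data. A zero is compatible with at most 3 counts per library, by counting error alone.

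The members and lists were chosen with earlier results of these data known. Genes named are the 6, each called gene of the wider lists or else its 2 most abundant tested genes, and the 3 genes nearest in pattern; Aqp3, Pmp22 and the marker genes were named after their values were seen. Some genes of the wider lists are not reported here.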

Additional observations from a re-analysis of the deposited data

How the results depend on the processing

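The log2 fold change of Gja1 stayed negative and past the threshold in all 13 alternatives (−6.09 to −3.21, adjusted p up to 0.0399), the smallest sizes coming from FPKM with a pseudocount. Gja3 and Lim2 kept their sign and were never called. Aqp5 kept its sign (1.91 to 2.37 over all alternatives). Scaling by total counts alone moved the median of all tested genes by 0.218, to which changes near 0, such as 0.29 for Mip and −0.02 for Lim2, are relative.

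With each library left out in turn, log2 fold changes ran from −6.09 to −5.10 for Gja1, 0.01 to 0.30 for Gja3, −0.32 to 0.32 for Mip, −2.46 to −1.01 for Aqp1, 1.91 to 2.31 for Aqp5 and −0.31 to −0.14 for Lim2. Aqp5 lost its call without Ctrl 2, Aqp1 gained one without cKO 1 (and by DESeq2, −1.54), and Mip changed sign without cKO 2. With 1 cKO library left, it is assumed to vary like the controls. Calls over all genes ran from 6 to 2197 higher and from 15 to 2964 lower, and in a wider list of 43 related channel and junction genes (3 higher and 3 lower in the reported fit) from 0 to 6 higher and from 0 to 7 lower; without any 1 Ctrl library the wider list had 0 calls each way. The fewest calls came without Ctrl 2 and the most without cKO 2.

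Under other settings the calls higher in cKO numbered 1234 by total-count scaling, 1209 by DESeq2, 1331 by FPKM + 1 and 1376 by FPKM + 0.1, against 675 in the reported fit. The calls lower in cKO numbered 1521 by DESeq2 and 569 by FPKM + 1 without a filter, against 906. The cause of these differences was not tested. With the replicate number as a block, 68 genes were higher and 107 lower, the wider list had 0 and 0, and Mip was −0.051, while Gja1 (−5.54) and Aqp5 (2.02) stayed called. Same-numbered libraries are not said to be paired. Their deviations from group means correlated at 0.111 and −0.083. The deviations of the 2 cKO libraries mirror each other, so these values cannot decide whether the pools were paired. At 36 and 20 counts in cKO, depth limits the precision of Gja1.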
